A study of Mus musculus with 42 samples.

Results

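Sonic hedgehog (Shh), its receptors Ptch1 and Smo, the coreceptors Boc, Cdon and Gas1, the regulator Sufu and the transcription factors Gli1, Gli2 and Gli3 were examined in single retinal progenitor cells (RPCs) of the mouse. These 10 genes were chosen by symbol as the core of the Hedgehog pathway, from 18194 genes measured, and all 10 had at least 1 probe set with that single symbol. In total 25 probe sets measured them. Each gene took, cell by cell, the signal of whichever of its probe sets was highest, and a signal of 1000 or more was called present; cells with a gene present are called positive for it.

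Hedgehog proteins are secreted signals that bind Ptch1 together with Boc, Cdon or Gas1. Binding relieves the block that Ptch1 places on Smo, and Smo then acts through the primary cilium on Sufu and the Gli factors, of which Gli3 serves mostly as a repressor and Gli1 as an activator. Ptch1, Gli1 and Hhip are themselves transcribed in response to the signal. In the developing retina, Shh is known as a product of ganglion cells that acts on the dividing progenitors beside them.

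The study asked how far individual RPCs differ from one another in the genes they express. It profiled 42 cells, each on 1 Affymetrix mouse 430 2.0 array: 11 cells of embryonic day 12.5 (E12.5), 4 of E13.5, 2 of E14.5, 1 of E15.5, 11 of E16.5 and 13 of the day of birth (P0). All came from CD-1 mice, an outbred strain, with no treatment or altered allele named, and were picked by pipette from retinas taken apart with papain. Their RNA was copied from the poly(A) tail and amplified through 35 cycles of PCR, and cells were classed as RPCs afterwards by their profiles, 6 of them as transitional to neurons. Neither animal nor litter is named for a cell, so that each stage counts as 1 sample, no test between stages was possible, and the intervals given here cover counting error only.

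Of 11 progenitor markers measured, Ccnd1 and Pax6 were present in 41 of 42 cells, Dkk3 in 40, Sox2 and Lhx2 in 34, Fgf15 in 32 and Sfrp2 in 29. The others were less widespread, with Six3 in 27 cells, Six6 in 25, Rax in 15 and Hes1 in 8. The study classed RPCs by a combined score of genes associated with Ccnd1, Fgf15, Sfrp2 and mu-crystallin (Crym). The presence of these genes is therefore partly set by the choice of cells. A median of 3034 genes was present per cell, with a range from 1386 to 5253. Among the 11 arrays of E16.5, 5 had hybridization controls that departed from those of all other arrays, namely those of cells J1, J2, J4, E8 and F1. Their 18 control probe sets deviated by an SD of 0.649 to 0.672 on the log2 scale, and those of the other 37 arrays by 0.192 or less. These 5 cells had a median of 4103 genes present, and the other 6 E16.5 cells a median of 2114.5. The number of positive E16.5 cells is therefore also given apart for both sets of arrays, and whether the arrays account for a difference between them was not tested.

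In the comparison of early and late progenitors, Ptch1, Gli3 and Gas1 were found in more cells at P0 than at E12.5, while the differences of the other 7 genes lay between -10.5 and 6.29 percentage points. Gas1 was present in 11 of 13 P0 cells but only 3 of 11 E12.5 cells, a difference of 57.3 points (95% Newcombe interval 17.6 to 78.1). Ptch1 went from 2 of 11 to 9 of 13 cells, a difference of 51.0 points (11.1 to 73.4). Gli3 went from 4 of 11 to 11 of 13 cells, a difference of 48.3 points (9.27 to 72.2). With the level set at 500 or 5000, some of these intervals included 0: that of Ptch1 at 500 (-6.12 to 60.7), and those of Gli3 (-2.82 to 62.1) and Gas1 (-9.42 to 55.9) at 5000. The ligand Shh was present in no cell of any stage.

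A difference of 30 percentage points was taken as the size worth naming. Over all 18194 genes, 4.73% were higher at P0 by that size and 1.52% lower, against 3 and 0 of the 10 pathway genes. Among the 6095 genes present in 8 or more cells, a set without the rarely found genes, 12.5% were higher and 4.32% lower. The median difference was 1.40 points over the 10 genes, 0 over all genes and 5.59 over those 6095. Ptch1 and Gli3 are genes that the study itself drew attention to in these same cells, so that their direction here is no independent evidence. The study also stained retinal sections for their RNA by in situ hybridization. It placed Ptch1 in a group turned on by E16.5, and found numbers of Gli3-positive cells by stage hard to determine there.

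**Figure D1:**
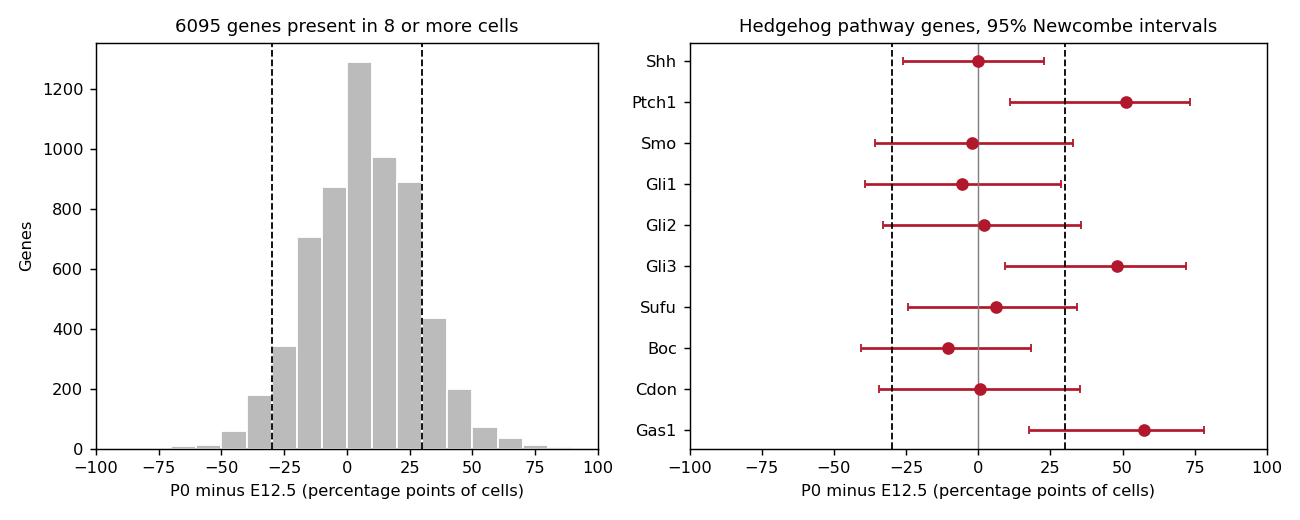
Left, the number of genes (y axis) by the difference in the percent of cells between P0 and E12.5 (x axis, percentage points), for the 6095 genes present in 8 or more cells. Right, the same difference for each pathway gene as a point with its 95% Newcombe interval; dashed lines mark 30 points. Ptch1, Gli3 and Gas1 lie between 48.3 and 57.3 points with intervals above 0, and the intervals of the other 7 genes include 0.

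Other features of the cells moved between the same stages. Of 5 genes used as markers of Müller glia, 3 were more widespread at P0 by 30 points, among them Rlbp1 (11 of 13 P0 cells and 0 of 11 E12.5 cells) and Car2 (12 of 13 and 1 of 11). Glul (27.3 points) and Vim (-7.69) were not. The study itself described Rlbp1 and Car2 as late genes and Sfrp2 as an early gene in these same cells. The direction of these 3 genes is therefore no independent evidence. On sections stained by in situ hybridization, the study saw Car2 in the retina by E16.5, Rlbp1 not before P0, and little Sfrp2 by P0. The 5 markers together were present in 43.6% of their cell values (1 value per gene and cell) at E12.5 and 87.7% at P0. Of the 11 progenitor markers, 2 were lower at P0 by 30 points, Sfrp2 (2 of 13 P0 cells and 11 of 11 E12.5 cells) and Six6 (5 of 13 and 9 of 11), none was higher by that size, and the median difference was 0. A median of 2800 genes was present per cell at E12.5 and 3063 at P0, with 15.3% and 18.1% of all gene values present. The part of these shifts in the values of Ptch1, Gli3 and Gas1 was not tested.

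For these 3 genes, and for Gli2, the sequence around the transcription start was at hand and is shown because the first 3 were each found in more cells at P0 and Gli2 alone held the inner letters of the consensus Gli site. Each run covers 250 bases before and 50 after a start site annotated by RefSeq on GRCm38.p6, read 5′ to 3′ along the gene. Capitals mark GC boxes (GGGCGG on either strand) and, in Gli2, the letters ACCACCC read on the opposite strand.

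Ptch1 (chr13:63565686-63565985, minus strand): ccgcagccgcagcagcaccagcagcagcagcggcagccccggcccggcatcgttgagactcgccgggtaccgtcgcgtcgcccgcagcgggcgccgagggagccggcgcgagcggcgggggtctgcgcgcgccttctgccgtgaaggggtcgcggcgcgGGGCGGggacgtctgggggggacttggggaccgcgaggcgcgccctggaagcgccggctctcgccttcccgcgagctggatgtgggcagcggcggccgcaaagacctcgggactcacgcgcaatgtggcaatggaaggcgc

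Gli3 (chr13:15463473-15463772, plus strand): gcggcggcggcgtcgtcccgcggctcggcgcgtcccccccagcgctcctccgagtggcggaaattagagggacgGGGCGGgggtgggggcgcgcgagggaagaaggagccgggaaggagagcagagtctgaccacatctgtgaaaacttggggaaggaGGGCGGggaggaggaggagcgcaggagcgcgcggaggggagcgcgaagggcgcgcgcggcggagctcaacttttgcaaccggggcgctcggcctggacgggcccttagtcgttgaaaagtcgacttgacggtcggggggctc

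Gas1 (chr13:60177486-60177785, minus strand): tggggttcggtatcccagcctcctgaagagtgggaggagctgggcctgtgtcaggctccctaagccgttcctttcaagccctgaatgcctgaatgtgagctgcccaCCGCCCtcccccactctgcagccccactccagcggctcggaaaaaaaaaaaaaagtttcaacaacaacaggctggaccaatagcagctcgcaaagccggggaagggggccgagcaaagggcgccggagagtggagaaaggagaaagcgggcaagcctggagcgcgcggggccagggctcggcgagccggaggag

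Gli2 (chr1:119053570-119053869, minus strand): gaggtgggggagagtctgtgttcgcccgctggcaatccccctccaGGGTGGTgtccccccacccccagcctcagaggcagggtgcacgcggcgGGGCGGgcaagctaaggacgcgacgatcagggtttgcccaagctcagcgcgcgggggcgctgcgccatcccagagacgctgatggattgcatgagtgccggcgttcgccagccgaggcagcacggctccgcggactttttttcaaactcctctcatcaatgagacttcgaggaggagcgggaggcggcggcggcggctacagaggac

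The consensus Gli site, GACCACCCA on either strand, was in none of the 7 promoters of the pathway genes listed (Ptch1, Smo, Gli2, Gli3, Sufu, Cdon and Gas1) and in 83 of all 32851 promoters, or 0.253%. Its inner 7 letters, ACCACCC, were found in Gli2 alone of the 7, and in 4.61% of all promoters. GC boxes occurred in 5 of the 7, of which Gli3 held 2, and in 35.7% of all promoters. Ptch1 and Gli3 were rich in G and C at 76.3% and 71.0%, with 47 and 39 CpG dinucleotides, and Gas1 had 62.3% and 17, against medians of 52.7% and 7 over all promoters. These matches describe the letters only.

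The ligand was not detected. Shh stayed below the level in all 42 cells, with signals from 0.146 to 617 and a median of 166, and the highest signal was in E16.5 cell J1. A count of 0 of 42 cells allows a share of up to 7.14%. Only 2 cells, J1 and E12.5 cell F2 with 518, reached 500. On the 5 E16.5 arrays with departing controls, Shh signals were 379 to 617, and on the other 6 they were 35.3 to 276, all below 1000. Those 5 arrays had 22.6% of all gene values present and the other 6 had 11.97%. How many other genes differed in this way between both sets of arrays was not counted. In the 10 cells with 5 or more of 13 ganglion cell markers, a limit set after the values were seen, Shh lay between 16.6 and 498, within the range of the other 32 cells.

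Other ligands and the genes for their release were rare. Ihh was present in 2 cells (E13.5 A6 and P0 C1) and Dhh in 1 (E16.5 F1). Of the 8 genes on this list, 5 were present in at least 1 cell, none differed by 30 points between E12.5 and P0, and the list as a whole was present in 3.87% of its cell values. Scube3, which helps release the lipid-bound ligand, was found most often, in 5 cells. Disp1, the transporter that exports Hedgehog proteins, followed with 3 cells.

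Ptch1, the receptor, was present in 15 of 42 cells, or 35.7% (95% exact interval 21.6 to 52.0). Its signals at E12.5 ran from 28.9 to 1921 with a median of 108, and only cells A4 (1413) and D5 (1921) passed the level. None of the 7 cells of E13.5 to E15.5 had it, with signals from 37.9 to 264, which allows a share of up to 42.9%. At E16.5 the signals ran from 34.4 to 13057 with a median of 539, and cells E8, F4, J1 and J2 were positive at 4708 or more, 3 of them among the 5 on arrays with departing controls and 1 among the other 6. At P0 they ran from 32.9 to 22181 with a median of 7678. The 9 positive P0 cells had 4004 or more, above both positive E12.5 cells, and the other 4 (A8, C5, E5 and E6) had 91.9 or less.

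At P0, Ptch1 had no middle values, with no cell between 91.9 and 4004. Of the 6 transitional cells none was positive, which allows a share of up to 50%, against 15 of the other 36 cells. Among these 6, C5 alone was of P0, the stage of 9 of the 15 positive cells. The transitional cells also had fewer genes present in all, with medians of 2352.5 and 3062.5. The part of stage and of the number of genes in the difference was not tested. All 15 calls came from 1 of 3 Ptch1 probe sets, 2 of these cells were also positive by the second, and the remaining probe set never passed 635. Mu-crystallin (Crym), a gene of late progenitors, was present in 19 cells, of which 11 also had Ptch1. All 13 P0 cells had Crym, so that each of the 9 Ptch1-positive cells at P0 had both. Crym was among the genes used to class RPCs, and the study described Ptch1 among the late genes grouped around it. These counts may therefore be partly set by the choice of cells.

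Smo, the transducer that Ptch1 holds in check, was the most widespread of the 10 genes, in 25 of 42 cells or 59.5% (43.3 to 74.4). Signals ran from 94.2 to 12115 at E12.5 (median 3491), from 32.3 to 7281 at E16.5 (median 1614) and from 9.94 to 12204 at P0 (median 4653). The stages overlapped over nearly their whole range, and 7 of 11, 6 of 11 and 8 of 13 cells were positive. E13.5 cells A8 and B3 had 8621 and 10960, and both E14.5 cells were positive at 2693 and 1709. At E16.5 all 5 cells on the arrays with departing controls were positive, and 1 of the other 6. Without these 5 arrays, the E16.5 share of Smo-positive cells differed from that at E12.5 by -47.0 points (-72.2 to 1.75), against -9.09 points with them.

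Among the coreceptors, Gas1, a GPI-linked surface protein that binds Shh, was present in 20 of 42 cells or 47.6% (32.0 to 63.6). Signals ran from 15.4 to 21806 at E12.5 (median 138), from 10.9 to 12554 at E16.5 (median 546) and from 13.3 to 15849 at P0 (median 4371). The highest signal of all was in E12.5 cell F2, which had no other pathway gene, and by the 1 probe set that called all 20 cells F2 was highest as well (16993). Gas1 was thus more widespread at P0, but its strongest signal was at E12.5. In between, E13.5 cells A5 and A8 and the E15.5 cell had 8241, 9609 and 5504. At P0 only B5 (51.0) and H2 (13.3) were below the level. The 3 positive E16.5 cells comprised 1 of the 5 on arrays with departing controls and 2 of the other 6.

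Cdon, an immunoglobulin-family coreceptor, was present in 15 cells or 35.7%, with 6 of 13 P0 cells, 2 of 11 E16.5 cells and 5 of 11 E12.5 cells positive. Its signals ran from 29.7 to 6414 at E12.5 (median 757), from 43.8 to 4177 at E16.5 (median 143) and from 54.6 to 5214 at P0 (median 933), with overlap between all 3 stages. Both positive E16.5 cells, J1 and J4, were on arrays with departing controls. E13.5 cell A8 (5295) and E14.5 cell B1 (4281) were also positive.

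Boc, the relative of Cdon, was the least widespread gene found, in 7 cells or 16.7% (6.97 to 31.4). Signals reached 1586 at E12.5 (median 219), 12825 at E16.5 (median 521) and 1744 at P0 (median 98.4), where F3 was the only positive cell. The signal of E16.5 cell D6 (12825) lay far above the others, which were at most 3263, in E13.5 cell A8. Cell D6 had no other pathway gene and was not on an array with departing controls, unlike F1, the other positive E16.5 cell.

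At least 1 coreceptor was present in 29 of 42 cells, 2 or more in 11 and all 3 in 2, E13.5 cell A8 and P0 cell F3. By stage, at least 1 was found in 11 of 13 P0 cells, 6 of 11 E16.5 cells and 7 of 11 E12.5 cells. In the P0 group these were the 11 cells with Gas1, and 6 of them had Cdon or Boc in addition.

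Sufu, which holds Gli factors back in the cytoplasm, was present in 12 cells or 28.6% (15.7 to 44.6). Signals ran from 74.1 to 6379 at E12.5 (median 212), from 90.5 to 12661 at E16.5 (median 534) and from 75.8 to 4516 at P0 (median 158). Cell B4 was the only positive cell at E12.5, 5 of 11 were positive at E16.5 (3 of the 5 on arrays with departing controls and 2 of the other 6), and C8 (1003) and H3 (4516) at P0. Of the E13.5 cells, A5, A6 and A8 had 2034, 1665 and 1347, B3 had 149, and the E15.5 cell had 1847. Among stages with 4 or more cells the share was highest at E13.5, where all 3 positive signals lay close to the level.

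Sufu was the only gene of the 10 past 30 points between E12.5 and E16.5, with a difference of 36.4 points (-1.12 to 63.9). Over all genes 2.00% were higher and 2.03% lower at E16.5 by that size. Without the arrays with departing controls the difference of Sufu was 24.2 points (-12.9 to 61.7), below the size named. Smo, Cdon and Gli3 (-36.4 points, -64.6 to 8.05) passed that size downward. Cdon was then at -45.5 points (-72.0 to 0.463). In this comparison 2.25% of all genes were higher and 6.03% lower by that size, and the 6 arrays left had 11.97% of all gene values present against 15.3% at E12.5. Between E16.5 and P0, Sufu differed by -30.1 points (-58.8 to 6.07), and by -17.9 points without those arrays. By the most widespread Sufu probe set, 1 of 11 E12.5, 4 of 11 E16.5 and 2 of 13 P0 cells were positive. Neither difference of Sufu reached 30 points by that probe set, and E16.5 cell F1 (1080) was called by another alone.

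From E16.5 to P0, Gli3 and Gas1 were each higher by 57.3 points (17.6 to 78.1), and Ptch1 by 32.9 points with an interval that included 0 (-6.12 to 60.7). Over all genes 5.05% were higher and 1.74% lower by 30 points, against 3 and 1 of the 10. Leaving out the departing arrays gave 84.6 points for Gli3 (37.2 to 95.7), 51.3 for Gas1 (5.84 to 77.4) and 52.6 for Ptch1 (4.64 to 75.2). It also brought Smo to 44.9 points and Cdon to 46.2, both past the size named, where they had been at 6.99 and 28.0. Without those arrays 10.0% of all genes were higher and 1.28% lower by 30 points, so that more genes passed upward in general, with 18.1% of all gene values present at P0 against 11.97% on the 6 arrays.

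**Figure D2:**
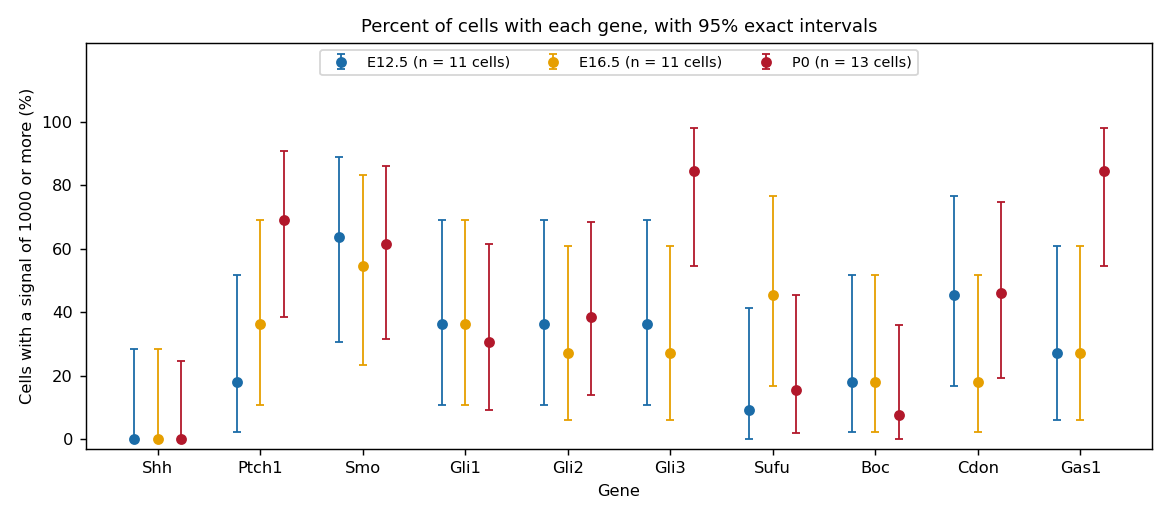
Percent of cells in which each gene (x axis) was present (y axis) at E12.5 (n = 11 cells), E16.5 (n = 11) and P0 (n = 13). Points are shares and bars 95% exact binomial intervals; Gli3 and Gas1 reach 84.6% at P0 and Ptch1 69.2%, while Shh is at 0 throughout.

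Gli3, the factor with a strong repressor form, was present in 21 of 42 cells or 50.0% (34.2 to 65.8). Signals ran from 86.6 to 14460 at E12.5 (median 242), from 26.9 to 3849 at E16.5 (median 290) and from 136 to 18437 at P0 (median 5063). At P0 only A8 (808) and H3 (136) were below the level, and the 11 positive cells had 2985 or more. E13.5 cells A5, A8 and B3 had 8723, 1276 and 14112. The 3 positive E16.5 cells (F1, J2 and J4) were all on the arrays with departing controls, and none of the other 6 had Gli3. Its probe sets did not always agree, since 16 cells were positive by one, 14 by another and 9 by both.

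Gli1, the activator that is itself a target of the pathway, was present in 13 cells or 31.0% (17.6 to 47.1), comprising 4 cells each of E12.5, E16.5 and P0 and 1 of E14.5. At E12.5 the signals ran from 4.06 to 30049 with a median of 37.6. Cells D5 (30049) and E3 (26725) stood far above every other cell in the data, whose highest was 5653, in P0 cell G2. E16.5 signals ran from 14.9 to 3364 (median 487), with 2 positive cells in each set of arrays, and P0 signals from 4.96 to 5653 (median 96.3). Between these stages the share of positive cells moved by less than 30 points, while the 2 strongest signals were both at E12.5. The difference from E12.5 to P0 was -5.59 points, with an interval from -39.1 to 28.6.

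Gli2, the main activator of the first response to the signal, was present in 14 cells or 33.3% (19.6 to 49.5). Signals ran from 55.6 to 10763 at E12.5 (median 129), from 71.1 to 2636 at E16.5 (median 300) and from 14.7 to 2517 at P0 (median 311). The highest signal was again in E12.5 cell D5, and E13.5 cell A5 had 7648. Positive cells were 4 of 11, 3 of 11 (2 of the 5 with departing controls) and 5 of 13. No transitional cell had Gli2.

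At least 1 Gli factor was present in 31 of 42 cells, and in all 13 P0 cells against 7 of 11 E12.5 cells and 7 of 11 E16.5 cells. Gli3 was the only Gli factor in 5 of the P0 cells. All 3 factors were found together in only 3 cells, E12.5 E3, E16.5 J2 and P0 E2. The P0 cells without Gli3, A8 and H3, both had Gli2.

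**Figure D3:**
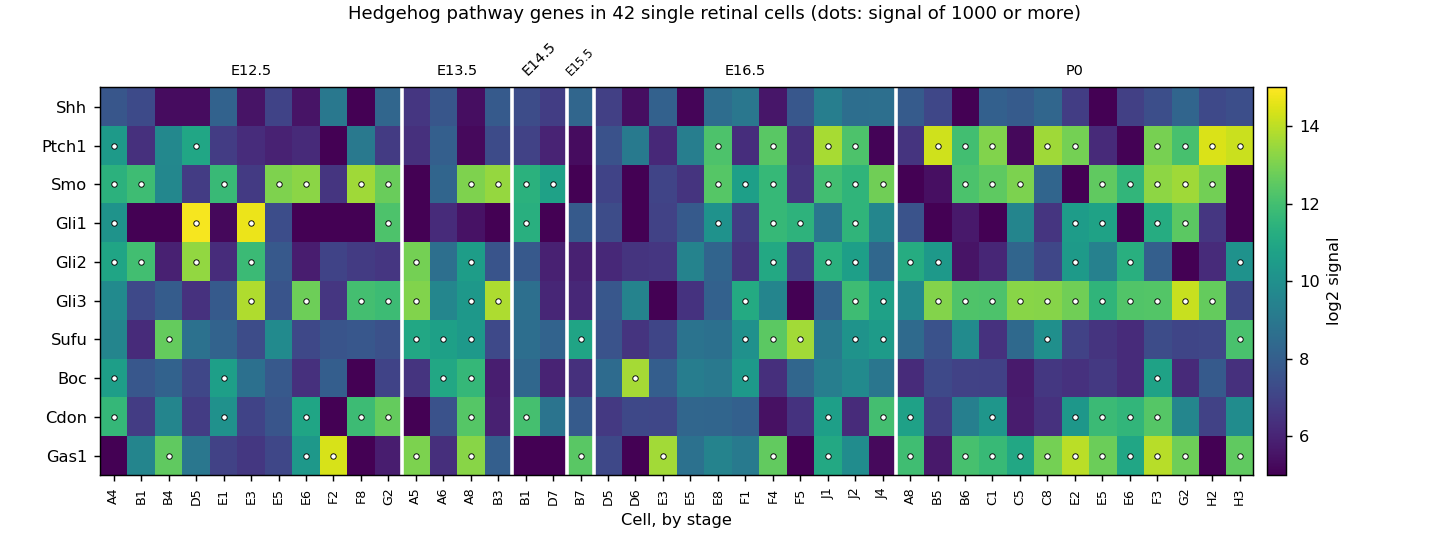
Log2 signal (colour) of each pathway gene (rows) in each of the 42 cells (columns, grouped by stage and named by cell); dots mark signals of 1000 or more. Ptch1, Gli3 and Gas1 are marked in most P0 cells, Shh in none, and nearly every column has its own set of marked genes.

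The number of pathway genes present in a cell ran from 0 to 7 of 10. The median was 4 in P0 cells (range 3 to 7), 3 in E16.5 cells (0 to 6) and 3 in E12.5 cells (1 to 6). E13.5 cell A8 and P0 cell F3 had 7, and the transitional E16.5 cells D5 and E5 had 0. All 13 P0 cells had at least 3, as did 7 of the 11 E12.5 cells and 6 of the 11 E16.5 cells.

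Cells with more genes present in all also had more pathway genes. Over the 42 cells, Pearson's r between both numbers was 0.703 and Spearman's rho 0.689. Among E12.5 cells r was 0.752 and rho 0.530, among E16.5 cells 0.824 and 0.867, and among P0 cells 0.757 and 0.711. These are descriptions, since each pair of numbers came from 1 array and shares its amplification. The 2 cells with no pathway gene also had the fewest genes present, 1386 and 1438. At E16.5 the 5 cells on arrays with departing controls had a median of 4 pathway genes and the other 6 a median of 1.

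**Figure D4:**
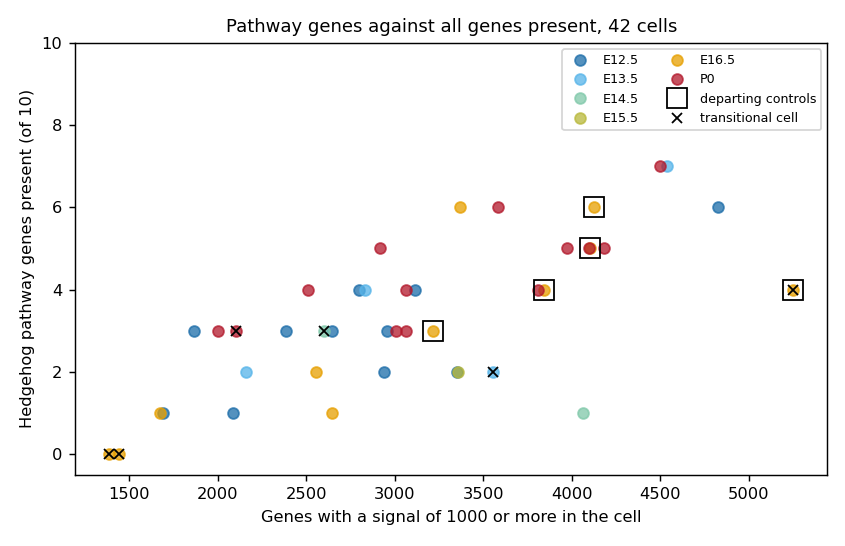
Number of pathway genes present (y axis, of 10) against the number of all genes with a signal of 1000 or more (x axis) in each cell, coloured by stage. Squares mark the E16.5 arrays with departing controls and crosses the transitional cells; the number of pathway genes increases with the number of genes present (Pearson's r 0.703 over 42 cells).

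The set of pathway genes called present differed between most cells. The 42 cells showed 38 distinct combinations of the 10 genes, 34 of them in a single cell and none in more than 2 cells. Each of the 11 E12.5 cells and each of the 13 P0 cells had a combination of its own within its stage. The number of combinations that other sets of 10 genes give was not computed. Missed transcripts and calls near the level also change a combination. Of the 420 values, 33 lay from 500 to under 1000 and 35 from 1000 to under 2000.

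Joint presence of the genes that receive the signal was counted cell by cell. Such counts depend on how widespread each gene was, with Ptch1 in 15 cells and Smo in 25. No expected share was computed. Ptch1 and Smo were found together in 10 of 42 cells or 23.8% (12.1 to 39.5), Smo without Ptch1 in 15, Ptch1 without Smo in 5 and neither in 12. All 10 cells with both receptors also had at least 1 Gli factor, as did 31 of all 42 cells. They comprised 5 of 13 P0 cells (B6, C1, F3, G2 and H2), 4 of 11 E16.5 cells (E8, F4, J1 and J2) and, of the 11 E12.5 cells, A4 alone. At E16.5, 3 of the 4 were on arrays with departing controls, which left 1 of the other 6 cells. Of the 7 Smo-positive cells at E12.5, 6 lacked Ptch1, while 5 of the 8 at P0 had it. Ptch1 was found with a coreceptor in 10 cells, 7 of them at P0. A receptor pair, a Gli factor and a coreceptor were all present in 7 cells (E12.5 A4, E16.5 F4 and J1, and P0 B6, C1, F3 and G2).

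Ptch1 and Gli1, both targets of the pathway, were found together in 8 cells: E12.5 A4 and D5, E16.5 E8, F4 and J2, and P0 E2, F3 and G2. These were 8 of the 15 cells with Ptch1 and 8 of the 13 with Gli1. At E12.5 both Ptch1-positive cells had Gli1, whereas at P0 it was 3 of 9. Conversely Ptch1 and Gli3 were together in 8 of 13 P0 cells, 1 E16.5 cell and no E12.5 cell. Ptch1, Gli3 and Gas1 shared 6 cells, all of P0. They were present in 9, 11 and 11 of the 13 P0 cells, so that this count largely restates their shares.

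Of the 45 pairs of genes, Smo and Gli3 shared the most cells, 16, which were 64.0% of the cells with Smo and 76.2% of those with Gli3. Their Jaccard index, the cells with both over the cells with either, was 0.533. Smo and Cdon shared 13 cells, 86.7% of those with Cdon, with an index of 0.481. At the low end Sufu and Cdon shared 2 cells of 25 with either (0.080), and Boc and Gas1 likewise 2 of 25.

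**Figure D5:**
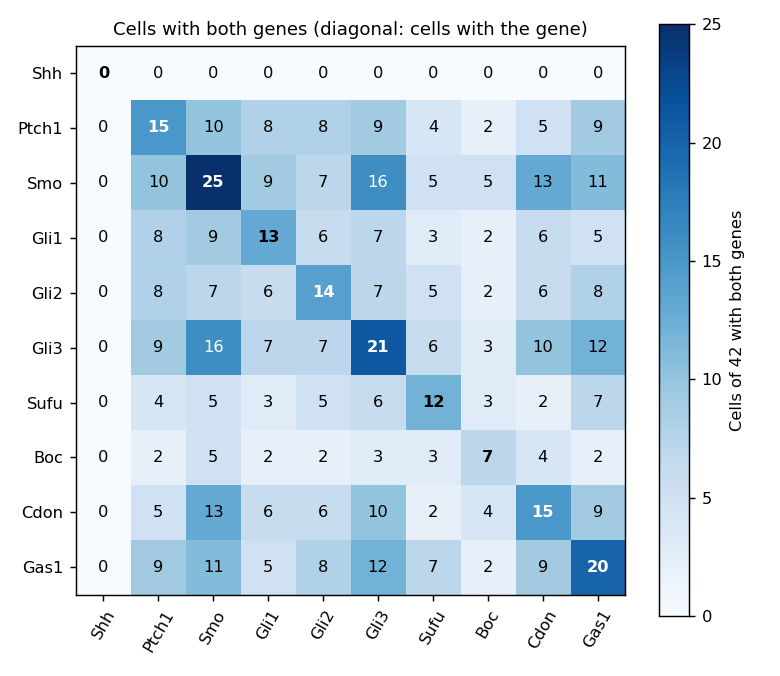
Number of the 42 cells in which both genes of a pair had a signal of 1000 or more (colour and printed number); the diagonal gives the cells with each gene. Smo and Gli3 share 16 cells and Smo and Cdon 13, while Boc shares at most 5 cells with any other gene.

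For the 8 members present in 8 or more cells, the 3 genes most alike in their positive cells were taken by the Jaccard index among 6094 other genes present as widely. Ptch1 was most like Hkdc1, a hexokinase relative, with 12 cells shared (index 0.706), followed by BC064078 (0.650) and Champ1 (0.632). Smo was most like the stress kinase gene Mapk14 (0.741, 20 cells shared), Bex1 (0.733) and Fam76b (0.724). Cdon was most like Adgrv1, an adhesion receptor, and Commd4 (both 0.667) and Tbx2, a transcription factor of the dorsal eye (0.632). Gas1 was most like the cadherin-related Fat1 (0.633), the sterol regulator Insig1 (0.630) and Akap13 (0.625). Thus no pathway gene stood among the 3 most alike genes of another.

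Among the Gli factors, Gli3 was most like Emb (0.643), Bod1 (0.621) and Rab5a (0.607). Gli1 was most like Nktr (0.550), Med28 (0.545) and Tmem106b (0.533), and Gli2 most like Slc35b1 (0.571), Spred1 (0.520) and Ccnl1 (0.500). Sufu was most like Gpt2 and Plcl2 (both 0.571) and Cops7a (0.556). Within the pathway the nearest were Smo for Cdon (rank 122 of 6094), Ptch1 for Gli1 (rank 128) and Smo for Gli3 (rank 149). Widespread genes reach a high index more easily, as the median index over all genes was 0.375 for Smo and 0.217 for Sufu.

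The wider pathway was examined in 56 further genes measured, of which 50 were present in at least 1 cell. Between E12.5 and P0, 2 were higher and 2 lower by 30 points, with a median difference of 0, beside 4.73% and 1.52% of all genes. The other genes of reception were scattered, with Arrb2, a beta-arrestin, in 13 cells and Gpr161, a ciliary receptor that opposes the pathway, in 10, and none of the 6 measured passed 30 points. Hhip, a decoy for the ligand and a target of the pathway, was present in 6 cells, 4 of them at E16.5, and 4 of these 6 also had Gli1 and 3 Ptch1.

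Primary cilium genes were present in 21.3% of their cell values, led by the motor subunit Kif3a in 25 cells and the transport subunit Ift27 in 18. Of 15 measured, Ift122 was lower at P0 (7 of 11 against 4 of 13 cells, -32.9 points, -60.7 to 6.12) and none was higher. Genes that phosphorylate and process Gli factors were more widespread, in 41.0% of cell values, led by Prkar1a, the regulatory subunit of protein kinase A, in 36 cells and Csnk1a1, a casein kinase, in 34. Of 17 measured, Csnk1d, another casein kinase, was lower at P0 (8 of 11 against 5 of 13 cells, -34.3 points, -61.4 to 4.91).

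Of 11 genes known as Hedgehog targets in some tissues, Cdk6, a G1 kinase, was higher at P0 (5 of 11 against 11 of 13 cells, 39.2 points, 1.41 to 65.8), as was Bmi1, a polycomb gene (3 of 11 against 8 of 13, 34.3 points, -4.91 to 61.4). Ccnd1, the cyclin of dividing progenitors, was present in 41 cells and Mycn in 27, with differences of 9.09 and 5.59 points. Of the 4 differences past 30 points among these further genes, the interval of Cdk6 alone left out 0.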

How the data were processed

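The 42 cells were measured by the authors on Affymetrix mouse 430 2.0 arrays, 1 cell per array. The deposited values are intensity signals on a linear scale, which the authors computed with MAS 5.0 and scaled to a target of 500. Array means computed without the highest and lowest 2% of probe sets were 500.002 to 500.023. Oligo-dT priming and 35 cycles of PCR weight the signal to 3′ ends and can lose rare transcripts, so a gene called absent may have been missed. Detection calls were not used here.

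Of 45101 probe sets, 34958 had 1 gene symbol in the platform annotation, 932 had several and 9211 were unnamed here. All 10 symbols matched RefSeq by gene identifier. The gene value was the highest signal of its single-symbol probe sets, present at 1000 or more, and 142 of the 420 values of the 10 genes were present. Of these 35 lay below 2000, and 33 of the absent values were 500 or more. Shares carry exact (Clopper-Pearson) and differences Newcombe 95% intervals, and a count of 0 was read as allowing up to 3 counts. Python 3.11.15, pandas 2.3.3 and SciPy 1.17.1 were used, and the size rule and intervals were tested on simulated data. The number of arrays limits the precision.

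Stage groups came from the labels, and the transitional cells from the study's own classing. Members, the 18 other lists and the tests were chosen with earlier results of these data known. Named were all members, of each list of pathway genes those differing by 30 points between E12.5 and P0 and the 2 in most cells, and the 3 genes most like each member; other genes and cells named were chosen after their values were seen. Some listed pathway genes were not analysed here.

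Lists of other cell types gave, as percent of cell values present, ganglion 19.0, amacrine 15.3, photoreceptor 5.56, horizontal 1.79, Müller glia 59.0, astrocyte 2.38, mesenchyme 3.40, endothelium 12.9, microglia 0.476, blood 9.52, lens 5.56 and pigment epithelium 3.17, with progenitor markers at 70.6. Of the endothelium markers, Kdr was in 25 cells, Pecam1 and Tek in 1 each and Cdh5 and Tie1 in none. Of the blood markers, Hbb-y was in 8 cells, Alas2 in 3 and Hba-a1 in 1. Alternatives were the level (500, 2000 or 5000), the same number of genes in every cell (3034), the mean or 1 probe set per gene, probe sets of several symbols, quantile normalization, and leaving out arrays or cells.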

Additional observations from a re-analysis of the deposited data

Results flagged for a closer look

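Among the 4 cells of E13.5, the only stage of 4 to 10 cells, Cdon had a signal of 5295 in cell A8, far from the 12.2, 60.4 and 183 of the other cells. It was the only one of 12 measures examined there whose highest or lowest cell stood so far apart, and chance alone flags about 1 in 20.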

How the results depend on the processing

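The differences of Ptch1 and Gli3 between E12.5 and P0 stayed at 30 points or more under the 9 alternatives that could change them (32.9 to 69.2 for Ptch1 and 35.7 to 58.7 for Gli3), but the interval included 0 for Ptch1 with the level at 500 (-6.12 to 60.7) and for Gli3 at 5000 (-2.82 to 62.1). Leaving out the 5 departing arrays, all of E16.5, cannot change these differences. That of Gas1 did so under 8 (up to 58.7 points) and was 28.0 points (-9.42 to 55.9) with the level at 5000. The other 7 genes reached 30 points under none of the 9. With the level at 5000, the median number of pathway genes per cell was 1 at E12.5, 2 at P0 and 0 at E14.5, and the share of cells with Ptch1 and Smo was 7.14%, with a Gli factor in addition 4.76%, with Ptch1 and a coreceptor 11.9%, and with Ptch1 and Gli1 0%. With the level at 500, Ptch1 and a coreceptor were together in 40.5% of cells. These values follow from a level that more or fewer signals pass. Leaving out each cell in turn, the median was 2 to 4 at E13.5 and 1 to 3 at E14.5. Of 461 values recomputed, 426 stayed within the interval or SD of the reported value. The other 35 moved outside it, 23 of them at the level of 5000, and no difference of 30 points or more turned direction. Such intervals are wide, that of Ptch1 running from 11.1 to 73.4 points, so that staying within them is a weak check. No paired analysis was possible because the cells carry no shared animal or litter and their numbers only name them. Depth limits what can be said of absent genes.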

Other observations

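Some cells held many markers of another cell type. E14.5 cell D7 held 5 of the 6 lens markers, and Smo was its only pathway gene although 4067 genes were present in it. E13.5 cell A6, with 2 pathway genes, held 4 of the 6 and had the highest signals for the crystallins Cryaa (78457) and Crybb1 (182917). Ganglion cell markers were more spread, with 5 or more of 13 in 10 cells. P0 cell C1, with 5 pathway genes, held 9 of them and was 1 of the 2 cells with Ihh (3017) and 1 of the 2 with Hhat, the acyltransferase that acts on Hedgehog ligands (1497). Its Shh signal was 268.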
